A study of Homo sapiens with 4 samples.

Results

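The genes described here encode the proteins of the cytoplasmic ribosome. They were chosen by name: an annotated symbol of RPL or RPS followed by digits, with an optional final A, L or X, or one of RPLP0, RPLP1, RPLP2 and RPSA, with pseudogenes left out. This gave 72 of the 19951 genes named on the array, 46 of the large subunit (RPL and RPLP symbols) and 26 of the small subunit (RPS symbols). Where a gene had several probes, the brightest on average stands for it. RPLP0 and RPSA were not analysed here.

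The measurements were Illumina bead array profiles of total RNA from H9 (also called WA09), an established human embryonic stem cell line, taken at 4 ranges of passage number. The groups are P1 (passages in the 40s), P2 (passages in the 100s), P3 (passages in the 200s) and P4 (passages in the 300s), with no other treatment named in the labels. All 4 groups come from the same line, so they describe that line only. Each group was measured on 1 array, so no difference below has a replicate spread or a p-value, and each one compares 2 arrays, not 2 passage ranges.

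Ribosomal proteins are made from messenger RNAs that are among the most abundant in growing cells. In vertebrates most of these messages begin with a C followed by an unbroken run of pyrimidines, the 5' terminal oligopyrimidine (TOP) tract, through which the growth-regulating kinase mTORC1 controls how actively they are translated. Because that control acts on translation, message levels alone do not report how much ribosomal protein is made. Unassembled ribosomal proteins are normally degraded, and a few of them, above all RPL5 and RPL11 bound to 5S ribosomal RNA, can inhibit MDM2 and so stabilise the tumour suppressor p53.

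The start of the message shows the feature that most of these genes share and a few lack. A start motif was scored where the RefSeq transcription start (GRCh38.p14) was a C followed by at least 4 bases that were each C or T, and 43 of the 60 genes with a promoter window had it in at least 1 window (71.67%), against 5.16% of the 27195 genes with a window. The sequences below give 10 bases before and 20 bases from the annotated start, 5' to 3', for genes whose values are described further on, and capitals mark the unbroken run of C and T from the start where it meets this rule. The genes that were higher in all later arrays than in P1 come first, then those that were lower in P4, then RPS6, RPL11 and a pair of paralogs.
RPS24, chr10:78033853-78033882, plus strand: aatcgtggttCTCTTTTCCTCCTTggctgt
RPL41, chr12:56116623-56116652, plus strand: cttcgcctttCTCTCggccttagcgccatt
RPS23, chr5:82278335-82278364, minus strand: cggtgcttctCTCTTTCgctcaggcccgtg
RPS9, chr19:54200848-54200877, plus strand: gcttccgcgcCTCTTTCTCagtgaccgggt
RPL37A, chr2:216498834-216498863, plus strand: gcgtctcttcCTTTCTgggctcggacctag
RPS19, chr19:41860245-41860274, plus strand: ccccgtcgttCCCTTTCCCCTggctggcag
RPL13, chr16:89560672-89560701, plus strand: gggccgcttcCTTTCCgctcggctgttttc
RPL29, chr3:51995876-51995905, minus strand: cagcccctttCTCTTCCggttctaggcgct
RPL14, chr3:40457329-40457358, plus strand: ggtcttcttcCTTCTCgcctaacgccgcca
RPS7, chr2:3575250-3575279, plus strand: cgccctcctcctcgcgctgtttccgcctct
RPS4X, chrX:72277229-72277258, minus strand: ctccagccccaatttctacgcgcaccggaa
RPS6, chr9:19380217-19380246, minus strand: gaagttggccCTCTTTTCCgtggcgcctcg
RPL11, chr1:23691796-23691825, plus strand: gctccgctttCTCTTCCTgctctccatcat
RPS27, chr1:153990752-153990781, plus strand: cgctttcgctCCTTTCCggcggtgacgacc
RPS27L, chr15:63157458-63157487, minus strand: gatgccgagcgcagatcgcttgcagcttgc

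Both directions of difference were found among genes with the tract, and RPS7, RPS4X and RPS27L had no run of the required length at the annotated start. No match means only that these letters are not at this annotated position. The RefSeq start is 1 position per transcript, and a start a few bases away would give another score.

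Signal was high and even across the arrays for most of these genes. Intensities are given in the array's linear units after background subtraction, on a scale whose highest deposited value was 30158.8. A gene counted as detected on an array where it reached 38.4 units, the 60th percentile of the probes. By that limit 70 of the 72 genes were detected on at least 1 array and 69 on all 4. RPL10 and RPL10L were detected on none, and RPL3L only in P3. Of the 72 genes, 50 had a mean of at least 10000 units and 46 lay above the 99th percentile of all probes (13340.8 units), which sets most of them in the upper part of the scale. The summed intensity of the 70 detected genes was 1135408, 1110411, 1130021 and 1129532 units from P1 to P4. Their share of the summed signal of all named genes was 6.89%, 6.64%, 6.80% and 6.79% in the same order. P2 had the lowest sum and P1 the highest, a spread of a few percent. Because the distributions of the arrays had been made nearly equal, a difference in the total amount of ribosomal message per cell could not be seen, and fewer cells of a type cannot be told apart from less RNA per cell.

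Embryonic stem cell markers were present. All 7 of the listed markers on the array (POU5F1, NANOG and SOX2 among them) were detected on all 4 arrays, and none differed by 2-fold between P1 and a later array. In P4 against P1 the highest of them was POU5F1 (log2 0.41) and the lowest SALL4 (-0.52). Of 14 markers of differentiated cells, 10 were undetected. NES, AFP and COL1A1 were detected on all arrays and FOXA2 only in P3. COL1A1, a fibrillar collagen, read 465.7, 708.4, 807.5 and 943.7 units from P1 to P4, and AFP, an endodermal marker, 61.0, 211.5, 111.7 and 86.1 units. Whether differentiated cells contribute to the ribosomal protein values was not tested.

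Differences between passage groups were small for these genes. A range over the 4 arrays is the log2 ratio of the highest to the lowest value, and its median was 0.20 over the 70 detected genes, against 0.43 over all 12168 detected genes. The range was under 1.2-fold for 49 of the 70 (70.0%; 24.2% of all detected genes) and at least 2-fold for 1, RPS27L (9.77% of all detected genes). Narrow ranges were also more frequent among bright genes in general. Among all 316 genes of at least 10000 units the range was under 1.2-fold for 55.7%. The share was 84.0% for the 50 ribosomal protein genes in that class, which are themselves counted among the 316. A range of at least 2-fold was found for 0 of those 316 genes, so its absence is not particular to the bright ribosomal protein genes. RPS27, a zinc finger protein of the small subunit, was among the steadiest, at 22379, 21339, 21280 and 22132 units in P1, P2, P3 and P4, and is named here after its values were seen. Its brightest probe thus read nearly the same on every array. A second RPS27 probe of similar signal read 15745, 20736, 22056 and 20527 units, lowest in P1, a log2 difference of 0.38 in P4.

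**Figure D1:**
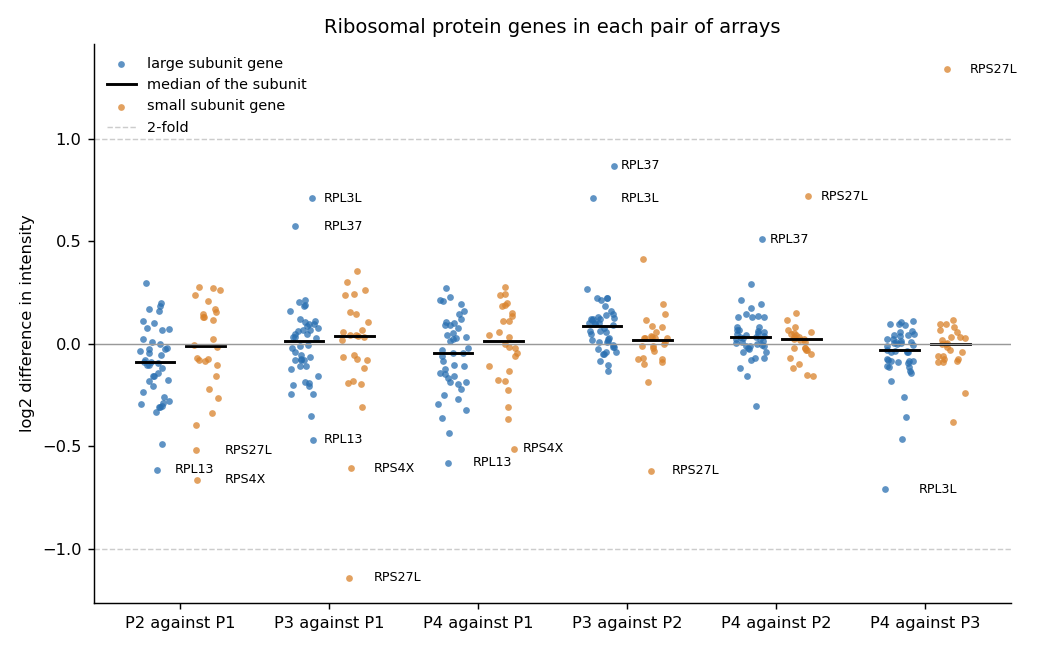
Log2 difference in intensity (vertical axis) of each detected ribosomal protein gene in the 6 pairs of arrays, later passage group minus earlier, with large subunit genes in blue, small subunit genes in orange, black bars at the subunit medians and dashed lines at 2-fold. The medians lie between -0.09 and 0.08, and RPS27L is the gene beyond the 2-fold lines, low in P3 against P1 and high in P4 against P3.

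In P2 against P1 most ribosomal protein genes read slightly lower in P2. Of the 69 genes detected in this pair, 45 were lower (65.2%), against 47% of all detected genes, and 24 were higher, against 52.9%. The median log2 difference was -0.07, against 0.03 over all genes. At least 1.2-fold lower were 14 of the 69, where 22.3% of all genes were, and at least 1.2-fold higher were 3, where 25.6% of all genes were. None differed by 2-fold, against 2.19% of all genes lower and 2.18% higher. Of all 316 genes of at least 10000 units, 0 passed 2-fold in this pair or in any other. The large subunit genes had a median of -0.09 with 31 of 43 lower, and the small subunit genes -0.01 with 14 of 26 lower.

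In P3 against P1 the genes were spread evenly around 0. The median was 0.03, against 0.02 for all genes, and 33 of 70 were lower (47.7% of all genes) and 37 higher (52.3%). At least 1.2-fold lower were 5 (20.9% of all genes) and at least 1.2-fold higher were 4 (23.7% of all genes). One, RPS27L, was at least 2-fold lower (1.6% of all genes) and none at least 2-fold higher (1.95%). The subunit medians were 0.01 (large) and 0.04 (small).

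In P4 against P1, the widest span of passages, the median was -0.02, against 0.03 for all genes, and 37 of 69 genes were lower (46.3% of all genes) and 32 higher (53.6%). At least 1.2-fold lower were 9 of 69 (19.5% of all genes) and at least 1.2-fold higher were 2, RPS24 and RPL41 (23.4% of all genes). None differed by 2-fold in either direction (1.23% of all genes lower, 1.82% higher). The large subunit genes had a median of -0.04 and the small subunit genes 0.02.

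Among the later arrays fewer of these genes passed 1.2-fold in either direction, and the same held for bright genes in general. Of all detected genes of at least 10000 units, 75.9%, 71.2% and 70.6% lay within 1.2-fold of P1 in P2, P3 and P4. That share was 95.9% in P3 against P2, 89.6% in P4 against P2 and 97.5% in P4 against P3. In P3 against P2, 47 of 70 genes were higher in P3 (47.3% of all genes) and 23 lower (52.7%), with a median of 0.03 and with 33 of 44 large subunit genes and 14 of 26 small subunit genes above 0. At least 1.2-fold higher were 4 (19% of all genes) and at least 1.2-fold lower was 1, RPS27L (20.7%). None differed by 2-fold (1.05% of all genes lower, 2.09% higher). In P4 against P2 the median was 0.02 with 43 of 69 higher (47.6% of all genes), 26 lower (52.3%), 3 at least 1.2-fold higher (19.3%) and 1, RPL29, at least 1.2-fold lower (19.8%). Again none differed by 2-fold (0.791% lower, 2.34% higher). In P4 against P3 the median was -0.02 with 39 of 70 lower (50.8% of all genes), 30 higher (49.1%), 4 at least 1.2-fold lower (14.6%) and 1, RPS27L, at least 1.2-fold higher (15.2%) and 2-fold higher (1.34%). None was at least 2-fold lower (0.764%). The 6 pairs reuse the same 4 arrays, so a level particular to 1 array enters 3 of them.

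The position of each array gives the same data in another form. P1 held the highest value for 27 of the 70 genes (27.2% of all detected genes) and P2 for only 8 (30%). P2 held the lowest value for 29 (25.6% of all genes), P1 for 21 (35.9%), P4 for 13 (18.5%) and P3 for 7 (20%). Values tied at the limit were counted for the earliest of the tied arrays. P1 was strictly below all 3 later arrays for 20 of the 70 genes, against 30.7% of all detected genes. An order of lower in P2, higher again in P3 and lower again in P4 was found for 24 of the 70, against 17.5% of all detected genes. A step down at every interval was found for 4 (4.68% of all detected genes) and a step up at every interval for 3 (4.06%).

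Among genes that stood apart, RPS27L varied most. RPS27L is a paralog of the small subunit protein RPS27, is a transcriptional target of p53 in human cells, and its protein binds MDM2. Its intensity was 9144, 6372, 4147 and 10479 units from P1 to P4, so that P3 was the lowest array and P4 the highest. It was 2.21-fold lower in P3 than in P1 (log2 difference -1.14) and 2.53-fold higher in P4 than in P3 (log2 difference 1.34). A second annotated RPS27L probe was undetected on every array, so the values rest on 1 probe. CDKN1A, which encodes p21, an inhibitor of cyclin-dependent kinases induced by p53, had its lowest and highest values on the same arrays, at 1562.3, 488.6, 89.9 and 2546.3 units in P1, P2, P3 and P4. Whether p53 activity has a part in either gene's values was not tested. MDM2 was undetected on all 4 arrays, and its relative MDM4 had log2 differences of -0.64, -0.35 and -0.49 from P1 in P2, P3 and P4.

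The promoters of RPS27, steady on its brightest probe but not on a second one, and of RPS27L, the most variable gene, are shown beside each other. Each sequence gives 120 bases before and 15 bases from the RefSeq start (GRCh38.p14), and capitals mark matches to the promoter motifs searched: CCGGAAG (an ETS-type site), GGGCGG (an Sp1-type GC box) and AANATGG (a core of the YY1 site), each on both strands.
RPS27, chr1:153990642-153990776, plus strand: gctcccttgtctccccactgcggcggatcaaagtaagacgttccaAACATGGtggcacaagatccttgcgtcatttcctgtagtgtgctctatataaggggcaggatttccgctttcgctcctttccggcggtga
RPS27L, chr15:63157463-63157597, minus strand: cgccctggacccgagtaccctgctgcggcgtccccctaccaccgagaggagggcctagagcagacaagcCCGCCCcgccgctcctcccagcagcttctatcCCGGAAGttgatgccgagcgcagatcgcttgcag

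The RPS27 stretch held 1 match to AANATGG and the RPS27L stretch 1 GC box on the opposite strand and 1 match to CCGGAAG. Over the full windows, from 250 bases before to 50 after the start, CCGGAAG was found for 22 of the 60 genes with a window (36.67%), against 12.16% of all genes with one. GGGCGG was found for 36 of 60 (60% against 48.41%), AANATGG for 16 (26.67% against 18.55%) and TATAAA for 5 (8.33% against 13.99%). No motif searched contains another, and a match is a description, not a bound site.

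Genes with and without the start motif had medians close to each other. The 42 detected genes with it had median log2 differences from P1 of -0.05, 0.04 and -0.02 in the order P2, P3, P4. The 16 without it had medians of -0.07, -0.01 and 0.03. The medians of the classes lay within 0.1 of each other in all 3 comparisons, with no test of the difference.

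The other 3 genes whose symbols end in L are also paralogs. RPL39L, a paralog of RPL39 that in mice is needed in male germ cells, read 4456, 3591, 3912 and 3691 units from P1 to P4. It was highest in P1, with log2 differences of -0.31, -0.19 and -0.27 in the later groups, and its second probe gave -0.14, 0.00 and -0.30. RPL3L, a paralog of RPL3 made in striated muscle, reached the limit only in P3, at 62.9 units, and was at least 1.64-fold higher there than in P1. RPL10L, the autosomal copy of RPL10 known from testis, stayed between 7.59 and 18.3 units. RPL10 itself, an X-linked gene of the large subunit, read -6.45, 14.6, -6.32 and -1.10 units from P1 to P4 on its brighter probe and below 0 on every array on the other. RPL10 is a part of every mature large subunit, and with both probes under the limit no level of it is given here.

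At least 1.2-fold lower in every later array than in P1 were 4 genes, RPL7, RPL13, RPS2 and RPS4X, where 8.33% of all detected genes were. None was higher in every later array by that fold (9.43% of all detected genes). RPS4X, the X-linked form of a small subunit protein, had the largest of these differences in P2, P3 and P4 among genes above 10000 units. Its intensity was 22507, 14211, 14762 and 15762 units from P1 to P4, so that P1 stood apart from 3 similar later arrays. The log2 differences were -0.66, -0.61 and -0.51, and a second probe of lower signal gave -0.33, -0.38 and -0.20.

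RPL13, a large subunit protein, read 3602, 2353, 2603 and 2408 units from P1 to P4, with log2 differences of -0.61, -0.47 and -0.58 in the later groups. Its second probe read 396.4, 465.4, 282.0 and 253.9 units, so the probes pointed opposite ways in P2 and the same way in P3 and P4. RPL7, a large subunit protein with 1 probe, read 5824, 4147, 4568 and 4306 units, with log2 differences of -0.49, -0.35 and -0.44. RPS2, a protein of the small subunit body near the message entry channel, read 23819, 18821, 19201 and 19219 units, and is named because it completes this count of 4. In each of these genes the 3 later arrays lay close together below P1.

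Further members had their lowest value in P4 or in P2 on the brightest probe. RPS7, which like RPL5 and RPL11 can bind MDM2, read 3376, 2564, 3416 and 2620 units, high in P1 and P3 and low in P2 and P4. Its second probe was also higher in P1 and P3 than in P2 and P4, at 2756, 2176, 2635 and 2131 units. It was highest in P1 and lowest in P4, where the brightest probe was highest in P3 and lowest in P2. RPL29, a small basic large subunit protein, read 3264, 3136, 3507 and 2542 units, lowest in P4 (log2 difference -0.36 from P1 and -0.46 from P3), and its second probe gave -0.24 and -0.21. RPL14 read 1567, 1360, 1320 and 1253 units, a step down at every interval, and its second probe 1557, 1010, 1151 and 1020 units. RPL22, whose loss occurs in some leukaemias, read 3953, 3979, 4270 and 3570 units, lowest in P4. Of the genes under 1000 units that were detected on all arrays, RPL37 read 401.9, 327.2, 597.3 and 465.7 units, highest in P3, and RPL28 read 482.8, 389.4, 469.1 and 476.3 units, lowest in P2.

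**Figure D2:**
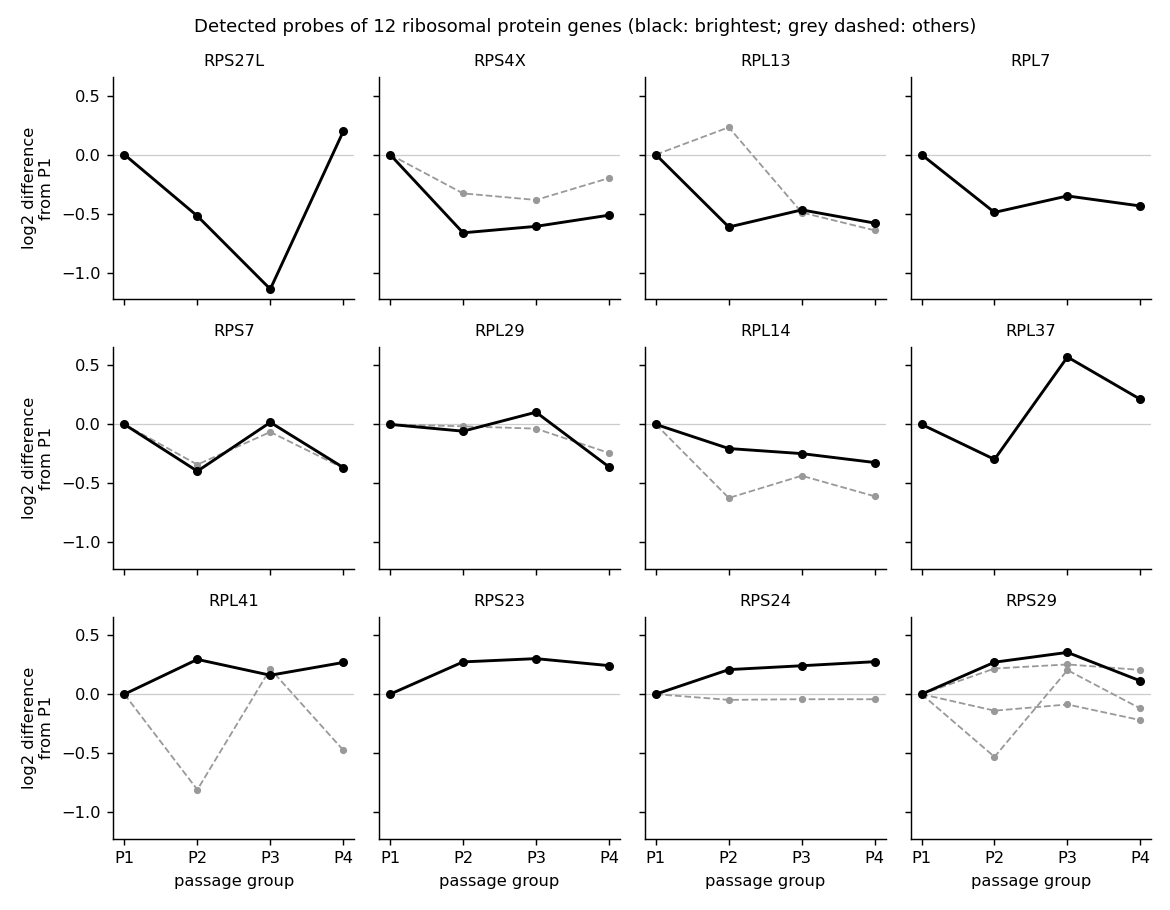
Log2 difference from P1 (vertical axis) of every detected probe of 12 ribosomal protein genes over the 4 passage groups (horizontal axis), with the brightest probe in black and other detected probes in dashed grey. Both probes of RPS7, RPL29 and RPS4X lie below 0 in P2 and P4, while in P2 the dimmest probes of RPL41 and RPS29 lie at -0.81 and -0.53 and the brightest ones at 0.29 and 0.27.

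Genes that read higher in all 3 later arrays were mostly bright. RPS24, a small subunit protein mutated in some families with Diamond-Blackfan anaemia, an inherited failure of red cell production, read 16783, 19389, 19835 and 20312 units. It stepped up at every interval and had the highest difference in P4 (log2 0.28), but its second probe gave -0.04. RPL41, the shortest of the ribosomal proteins, read 19630, 24082, 21944 and 23651 units, lowest in P1 (log2 0.27 in P4), and its second probe, at 188.4 units in P4 and 261.7 in P1, gave -0.47. RPS23, which contacts the decoding centre, had 1 probe and read 1484, 1794, 1829 and 1755 units, with log2 differences of 0.27, 0.30 and 0.24.

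RPS9, a small subunit protein near the message entry site, read 13436, 16095, 15846 and 15846 units, and its second probe pointed the same way at a log2 difference of 0.09 in P4. RPL37A, a zinc finger protein of the large subunit, read 20622, 23660, 23422 and 24109 units, and its second probe, near 300 units, gave -0.39 in P4. RPS29, a small zinc finger protein, read 22166, 26748, 28338 and 23965 units, highest in P3. Its 3 other probes gave log2 differences in P3 of -0.09, 0.25 and 0.20. On another probe of RPS24, RPL41, RPL37A and RPS29, P1 was thus not the lowest array.

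The genes of the 5S particle proteins, RPL5 and RPL11, had ranges of 0.19 and 0.09, and RPS6 had 0.23, beside a member median of 0.20. RPL5 read 10529, 11756, 11980 and 11655 units and RPL11 23660, 24941, 25138 and 25174 units, both lowest in P1, with log2 differences in P4 of 0.15 and 0.09. A second RPL11 probe of similar signal read 22625, 23084, 23412 and 21923 units, lowest in P4 (-0.05). RPS6, the small subunit protein phosphorylated downstream of mTORC1, read 28338, 25403, 24759 and 24226 units, lower at every interval, with a log2 difference of -0.23 in P4. Its second probe, at 18396, 16117, 15745 and 17289 units, was also highest in P1 and gave -0.09. RPS19, the gene most often mutated in Diamond-Blackfan anaemia, read 19576, 23035, 23477 and 22277 units, lowest in P1.

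The acidic stalk proteins RPLP1 and RPLP2 recruit translation factors to the large subunit. RPLP1 read 24848, 24799, 23927 and 25744 units and RPLP2 21201, 24039, 24414 and 24450 units, and both lay above P1 in P4, by log2 0.05 and 0.21. The 2 other RPLP1 probes lay below P1 in all 3 later groups, at -0.12 and -0.10 in P4. RPS12 read 25282, 27686, 24345 and 24922 units and was highest in P2, and RPS15 read 21827, 21694, 20681 and 22435 units and was lowest in P3. The 2 other RPS15 probes were lowest in P4 and in P2, and gave -0.16 and -0.21 in P4 where the brightest gave 0.04. RPL27A read 22575, 25363, 23627 and 25228 units, lowest in P1. RPL35, whose protein sits at the exit of the peptide tunnel, read 13584, 13364, 14536 and 15509 units, highest in P4.

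Of the genes described here, 17 were listed as mutated in Diamond-Blackfan anaemia, and all 17 were detected. Their median log2 difference from P1 was 0.07, 0.09 and 0.08 in the later groups, with 9, 12 and 11 of 17 higher than in P1, where 52.9%, 52.3% and 53.6% of all detected genes were. At least 1.2-fold higher was 1 gene in each later group (25.6%, 23.7% and 23.4% of all genes), and at least 1.2-fold lower were 2 in P2, none in P3 and 1 in P4 (22.3%, 20.9% and 19.5%). The 4 X-linked members were RPL10, RPL36A, RPL39 and RPS4X. RPL36A read 1402, 1145, 1299 and 1143 units and was highest in P1, and RPL39 read 15870, 17143, 16638 and 16879 units and was lowest in P1, so the detected X-linked genes did not share an order.

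Direction varied with the brightness of the probe. Among the 17 genes with a mean of 1000 to 10000 units, 14 were lower in P2, 10 in P3 and 13 in P4 than in P1, with medians of -0.20, -0.08 and -0.18. Among the 50 of at least 10000 units, 29, 22 and 23 were lower, with medians of -0.03, 0.03 and 0.02. Over all detected genes of 1000 to 10000 units, 45.4%, 46.1% and 45.6% were lower in P2, P3 and P4, and over those of at least 10000 units 47.8%, 43.7% and 42.4%.

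The same appeared when every detected probe of the ribosomal protein genes was counted. Of the 35 probes of 1000 to 10000 units, 30 were lower in P2, 21 in P3 and 30 in P4. Of the 67 probes of at least 10000 units, 37, 30 and 31 were lower. Of the probes under 1000 units, 8 of 10, 8 of 11 and 9 of 10 were lower in P2, P3 and P4, the last with a median of -0.49. Over all detected genes under 1000 units, 47.6%, 48.5% and 46.7% were lower in P2, P3 and P4. The shares for the brighter classes are those of all detected genes given above, 1 probe per gene. Whether the top of the scale hides differences of the brightest probes was not tested, and the reading of other transcripts by dim probes was not tested either. Ribosomal protein genes have many processed pseudogenes and some close paralogs, so that a probe can take signal from a near-identical copy.

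**Figure D3:**
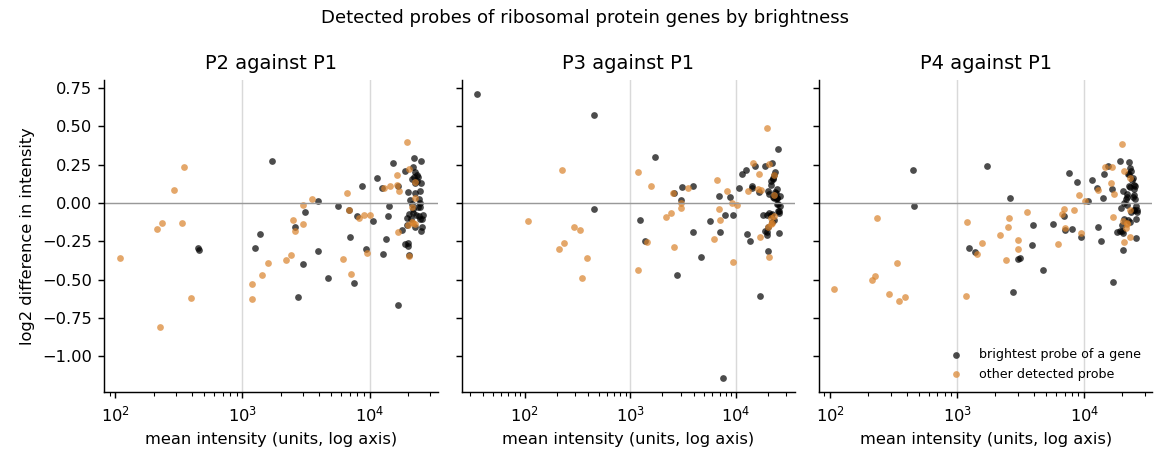
Log2 difference from P1 (vertical axis) against mean intensity (horizontal log axis) for detected probes of ribosomal protein genes in P2, P3 and P4, with the brightest probe of each gene in black and other probes in orange. Probes of 1000 to 10000 units lie mostly below 0 in P2 and P4 (30 of 35 in each), and those of at least 10000 units lie on both sides.

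Probes of the same gene often disagreed, which bounds how far single values can be read. The 31 genes with more than 1 detected probe had 43 other probes. These pointed the same way as the brightest probe in 30 of 43 cases in P2 against P1, 27 in P3 against P1 and 16 in P4 against P1. Where the brightest probe differed by at least 1.2-fold, the other probes had its direction in 4 of 10, 4 of 5 and 6 of 8 cases. The median gap between an other probe and the brightest was 0.18, 0.15 and 0.21 log2 units. The median size of the brightest probes' own differences, at 0.16, 0.12 and 0.12, was smaller than that gap. Among the genes described, RPL13, RPL14, RPL29, RPL39L, RPS4X, RPS6, RPS7 and RPS9 had 2 detected probes that gave the same direction in P4 against P1.

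Genes that work with the ribosomal proteins were set beside them from lists. Translation factors and other genes of TOP messages had medians of -0.08 (P2), 0.00 (P3) and 0.01 (P4) against P1 over 15 detected of 16 listed, with 8, 7 and 6 lower, beside 47%, 47.7% and 46.3% of all detected genes. NACA, a subunit of the nascent polypeptide-associated complex, was the lowest in P4, at 26798, 22800, 21923 and 21875 units. EEF1G, an elongation factor subunit, was the highest at 9835, 10255, 10547 and 11128 units. P1 was the extreme array for both, high for NACA and low for EEF1G.

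The genes of the mitochondrial ribosome, a separate machine, had medians of -0.02, -0.04 and -0.04 over 76 detected genes, with 40, 43 and 47 lower than in P1, beside 47%, 47.7% and 46.3% of all detected genes. Lowest in P4 was MRPL1 (log2 -0.63) and highest MRPL53 (0.46). MRPS35 was at least 2-fold lower in P3, at 1691, 1376, 689.8 and 1326 units from P1 to P4, and is named after its values were seen. Detected as well were 5 ribosomal protein paralogs or fusion genes outside the naming rule (FAU, RPL7L1, RPL22L1, RPL26L1 and RPL36AL). Of these RPL22L1, the paralog of RPL22, was dim and lowest in P3, at 149.0, 108.7, 69.9 and 102.9 units, and FAU, which encodes RPS30 fused to a ubiquitin-like protein, was even at 17318, 18210, 18913 and 16753 units.

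Genes of ribosome assembly were also described, with no test against the ribosomal proteins. The 39 detected biogenesis factors had medians of 0.07 (P2), -0.10 (P3) and -0.05 (P4), with 24 higher in P2 (52.9% of all detected genes), 28 lower in P3 (47.7%) and 23 lower in P4 (46.3%) than in P1. Their SD over genes was 0.30, 0.21 and 0.24, wider than these medians. It is a spread between genes and does not measure the error of a median or of an array. Lowest in P4 was UTP15, of the small subunit processome (log2 -0.57), and highest NAT10, an RNA acetyltransferase (0.37). The 15 genes of RNA polymerase I transcription, which makes the large ribosomal RNAs, had medians of 0.02, -0.16 and -0.17, with 12 of 15 lower in P3 (47.7% of all detected genes) and in P4 (46.3%). TAF1A was the lowest in P4 (-0.58) and TAF1C the highest (0.56), both subunits of the selectivity factor SL1. The 6 dedicated chaperones of ribosomal proteins had medians of 0.11, -0.12 and -0.04, between HEATR3 (-0.18 in P4) and TSR2, the chaperone of RPS26 (0.27).

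Host genes of small nucleolar RNAs that encode no ribosomal protein had their highest median in P2. Several of these hosts are themselves TOP transcripts. Of 10 detected, 9 were higher in P2 than in P1 (52.9% of all detected genes) with a median of 0.42, and the medians were 0.17 in P3 and 0.19 in P4. In P3 against P2 all 10 were lower in P3 (52.7% of all detected genes). SNHG8, the 1 host lower in P2, read 216.6, 199.1, 180.2 and 199.0 units and was highest in P1. SNHG1 read 2040, 4426, 3208 and 3125 units and SNHG15 386.3, 1055, 289.4 and 653.3 units. Regulators of mTORC1 and TOP messages had medians of -0.14, -0.02 and -0.01 over 17 detected genes, with the cap-binding protein EIF4E lowest in P4 (log2 -0.39) and the mTORC1 inhibitor AKT1S1 highest (0.77), at 69.2 units in P4 and 40.7 in P1, close to the limit. MYC, a transcription factor that drives ribosomal protein genes, had log2 differences of 0.08, -0.46 and 0.27, and MYCN 0.11, 0.10 and 0.43. NOP53, a nucleolar assembly factor, had -0.02, 0.05 and 0.12.

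**Figure D4:**
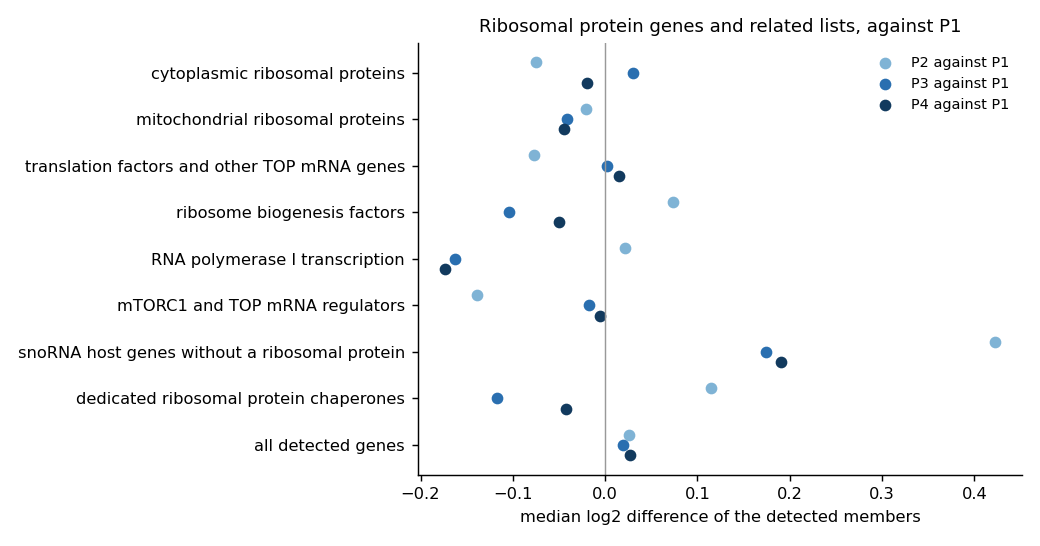
Median log2 difference from P1 (horizontal axis) of the detected genes of each list (vertical axis), for P2, P3 and P4, with all detected genes in the bottom row. The ribosomal protein medians are -0.07, 0.03 and -0.02, and the small nucleolar RNA hosts reach 0.42 in P2.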

How the data were processed

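The files as deposited held linear intensity values for 47323 probes on each of 4 arrays, background-subtracted before deposit as the values show (25.2% to 25.4% of probes below 0). Which software and normalization the authors used is not given in the sources used here. Per the labels' protocols, total RNA was amplified to biotin-labelled cRNA. The array medians were 17.4 to 17.5 units.

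The arrays were quantile normalized, values under the 60th percentile (38.4 units) were set to it, and log2 was taken. A gene was its probe with the highest mean, and counted in a pair if either array reached that limit. Of the probes, 30113 carried 1 symbol, 8 several and 17202 none, and 30074 matched a current gene by Entrez identifier. Genes passing 1.2-fold or 2-fold were counted, with no test, since each group had 1 array. Named genes were the 6 highest and lowest in P4 against P1, the 4 highest and lowest in every other pair, those past 2-fold, the 6 widest ranges, symbols ending in L, and RPL5, RPL11, RPS6, RPS19, RPS4X and RPL10. Of each related list the highest and lowest in P4 against P1 were named. RPS2, RPS27, RPLP2, RPL36A, RPL39, MRPS35, FAU and SNHG1 were chosen after their values were seen, and the members and lists were chosen with earlier results of these data known. Alternatives were the deposited values, median centring, limits at the 50th and 75th percentiles, an offset of 50, the mean or dimmest detected probe, members under 10000 units, and members without the paralogs ending in L. Calculations were tested on simulated data and run in Python 3.11.15 with numpy 2.4.6 and pandas 2.3.3. Promoter windows and gene names came from RefSeq.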

Additional observations from a re-analysis of the deposited data

How the results depend on the processing

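No paired analysis was possible because each passage group had 1 array. Of the alternative values of the member medians and counts in the 6 pairs, 186 kept within their tolerance (0.1 log2 units for a median, 1.5 times for a count), 29 moved further and 1 turned sign. The tolerance for a median was larger than each of the 6 member medians, which lay between -0.0749 and 0.0349. Keeping within it therefore says little about the medians. On the deposited values, and with each array centred on its median, members at least 1.2-fold higher in P4 against P1 numbered 1 in place of 2. With the mean of the detected probes, members higher by that fold numbered 1 in P2 against P1 and 0 in P4 against P1, and members lower numbered 2 in P3 against P2 and 3 in P4 against P2. With the dimmest detected probe, members higher numbered 1 in P2 against P1, 0 in P4 against P1, 8 in P3 against P2 and 5 in P4 against P2. Members lower then numbered 9 in P3 against P1, 14 in P4 against P1, 2 in P3 against P2, 2 in P4 against P2 and 9 in P4 against P3.

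With only the 19 or 20 detected members under 10000 units, the medians were -0.22 in P2 against P1 and -0.17 in P4 against P1. In P3 against P1 the median was -0.0599, which turned the sign of 0.03 over all members. Of these members 16, 11 and 14 were lower in P2, P3 and P4 than in P1, 4 were lower in P3 and 8 in P4 than in P2, and 16 were lower in P4 than in P3. By at least 1.2-fold, 9 were lower and 1 higher in P2, 3 lower in P3 and 0 higher in P4 than in P1. These counts hold fewer genes by construction. Without the paralogs ending in L, 0 members were at least 1.2-fold lower in P3 against P2 and 0 higher in P4 against P3, since RPS27L was the gene counted there. Beyond these constructions the cause was not tested.

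Of 26 named members in P4 against P1, 7 changed sign with the dimmest probe, 5 with the mean of probes, and 1 each on the deposited and the centred values. All-gene medians lay between -0.0225 and 0.0303 under the settings tried. With 1 array per group, no spread between cultures or arrays is known. Most members lie near the top of the scale; whether this limits the size of differences was not tested.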

Other observations

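Annotated pseudogenes of ribosomal proteins, looked at after the other values were seen, gave signals from undetected to near the top of the scale. Of 20 such genes, 4 were undetected on all arrays and 15 were detected in P4 against P1, with a median log2 difference of -0.07 and with 10 of them lower in P4 (46.3% of all detected genes). RPL13AP5 read 25720, 28538, 26345 and 28538 units in P1, P2, P3 and P4, and RPSAP9 24377, 25720, 25683 and 24815 units. RPL23AP87 read 9185, 6307, 6675 and 7227 units, and RPL23AP64 4386, 3064, 3172 and 3613 units, both highest in P1, as was RPL21P28 at 6829, 4980, 5172 and 5329 units. RPL13AP20 was lowest in P1, at 20425, 24533, 24780 and 24759 units. Whether these probes read the pseudogenes or the transcripts of their parent genes was not tested.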
